A study of Mus musculus with 19 samples.

Results

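The H2 genes of the mouse major histocompatibility complex (MHC) were examined in Wiz MommeD30/+ and Wiz +/+ mice. The set held all genes with a symbol that starts with H2-, which was 45 of the 41388 gene identifiers in the count files. All 45 lay on chromosome 17 of the GRCm38 (mm10) build, from the start of H2-K2 at 33974659 to the end of H2-M2 at 37483552. They were 2 classical class I genes (H2-K1 and H2-D1), 30 non-classical class I genes and class I pseudogenes, 7 class II chain genes and pseudogenes, 5 genes for the chains that load peptide onto class II molecules, and H2-Ke6, which encodes an enzyme and no MHC molecule. In the annotation 34 were protein coding and 11 were pseudogenes. Wiz itself lies on the same chromosome, at chr17:32354055-32389439, and the members start 1585.2 to 5091.4 kb beyond its end.

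Class I molecules are heavy chains that pair with beta-2 microglobulin and show peptides from inside the cell to CD8+ T cells. Class II molecules are pairs of an alpha and a beta chain, made mainly by antigen-presenting cells, that show peptides from engulfed material to CD4+ T cells. They are assembled on the invariant chain (Cd74), and their peptides are loaded by the DM molecule under the control of the DO molecule. In healthy brain tissue class II is usually low and held mainly by macrophages and dendritic cells at the borders of the brain, whereas classical class I is also made by neurons, endothelium and glia.

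The study asked which genes change expression in the brain when 1 copy of Wiz is lost. PolyA RNA was sequenced from 16 samples. Cerebellum came from male mice of 56 days (8 weeks), 3 Wiz +/+ and 3 Wiz MommeD30/+. Whole brain came from embryos of 13.5 days post coitum (E13.5), with 3 Wiz +/+ and 3 Wiz MommeD30/+ males and 2 Wiz +/+ and 2 Wiz MommeD30/+ females. MommeD30 is a null allele of Wiz from a chemical (ENU) mutagenesis screen. All animals were of the Line3 strain, which has an FVB/NJ background and is homozygous for a multicopy GFP transgene under a human α-globin promoter, so wildtype littermates carried that transgene too. FVB mice have the q haplotype of H2 and the reference genome has the b haplotype, and the part that this difference plays in the read counts was not tested. A stretch of chromosome 17 is inherited together with the MommeD30 allele, so in the genotype comparisons linkage to the allele and the loss of Wiz cannot be told apart for any member.

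Promoters of 6 members are shown: H2-Eb2, which carries the sole genotype call, its neighbour H2-Eb1, H2-Aa and H2-M5 as members with large tissue differences in opposite directions, and the classical class I genes H2-D1 and H2-K1, of which the first alone was called between tissues. Each line is 300 bases of GRCm38.p6 from RefSeq, 5′ to 3′ on the strand of the gene, with 250 bases before the start and 50 after it. Capitals mark the letters searched for on both strands: the X box core GCAACNGAT and the Y box CTGATTGG of class II promoters, which are bound by RFX and NF-Y, the κB letters GGGATTCCC, the interferon element letters TTTCACTTC, and TATAAA.
H2-Eb2, + strand, chr17:34325425-34325724: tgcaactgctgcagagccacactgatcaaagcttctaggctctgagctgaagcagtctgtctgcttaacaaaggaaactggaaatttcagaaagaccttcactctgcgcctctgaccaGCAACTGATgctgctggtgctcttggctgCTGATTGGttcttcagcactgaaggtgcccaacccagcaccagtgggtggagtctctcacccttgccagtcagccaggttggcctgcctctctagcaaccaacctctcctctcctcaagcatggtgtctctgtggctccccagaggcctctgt
H2-Eb1, + strand, chr17:34305617-34305916: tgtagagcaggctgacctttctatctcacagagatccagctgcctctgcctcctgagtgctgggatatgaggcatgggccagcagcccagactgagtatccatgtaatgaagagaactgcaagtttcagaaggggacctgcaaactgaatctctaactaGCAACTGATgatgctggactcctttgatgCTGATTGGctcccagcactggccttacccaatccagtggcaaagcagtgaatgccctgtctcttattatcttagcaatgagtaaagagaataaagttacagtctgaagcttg
H2-Aa, - strand, chr17:34287774-34288073: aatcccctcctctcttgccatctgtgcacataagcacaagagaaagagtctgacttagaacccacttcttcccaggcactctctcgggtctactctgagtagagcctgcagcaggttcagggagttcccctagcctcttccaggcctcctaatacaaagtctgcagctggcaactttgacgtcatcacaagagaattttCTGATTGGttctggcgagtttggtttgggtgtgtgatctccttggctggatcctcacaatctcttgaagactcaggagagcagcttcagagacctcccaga
H2-D1, + strand, chr17:35262844-35263143: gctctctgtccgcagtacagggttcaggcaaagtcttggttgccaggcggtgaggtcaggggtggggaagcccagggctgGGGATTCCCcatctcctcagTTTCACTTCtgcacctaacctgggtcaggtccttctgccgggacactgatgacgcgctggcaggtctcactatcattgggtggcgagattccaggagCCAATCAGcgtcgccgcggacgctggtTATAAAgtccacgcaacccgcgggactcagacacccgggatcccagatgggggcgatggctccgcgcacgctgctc
H2-K1, - strand, chr17:34000298-34000597: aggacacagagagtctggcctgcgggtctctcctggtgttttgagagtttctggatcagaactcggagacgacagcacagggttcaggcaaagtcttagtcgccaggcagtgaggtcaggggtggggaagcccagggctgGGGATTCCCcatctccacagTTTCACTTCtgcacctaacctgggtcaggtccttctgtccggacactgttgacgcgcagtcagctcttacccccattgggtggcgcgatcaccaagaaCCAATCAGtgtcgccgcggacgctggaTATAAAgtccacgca
H2-M5, - strand, chr17:36989484-36989783: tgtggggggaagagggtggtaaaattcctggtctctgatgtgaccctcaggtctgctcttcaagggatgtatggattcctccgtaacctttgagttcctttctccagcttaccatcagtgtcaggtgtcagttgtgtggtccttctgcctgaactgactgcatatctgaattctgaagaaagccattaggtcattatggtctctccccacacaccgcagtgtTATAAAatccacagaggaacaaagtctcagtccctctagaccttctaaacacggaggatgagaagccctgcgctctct

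The exact X box letters GCAACNGAT were found in the promoters of H2-Eb1 and H2-Eb2 and in no other member promoter. They were found in 0.414% of the 32851 promoters of the same length in the table. Other forms of the X box were not searched for, so a promoter without these letters, such as that of H2-Aa, may still hold one. In both genes the Y box letters followed on the same strand. The Y box letters alone, which hold a CCAAT box on the other strand, were found in 4.1% of all promoters and in 18 of the 32 members that had a promoter in the table. The κB letters occurred in 0.353% of all promoters and in those of H2-D1, H2-K1, H2-Q6 and H2-Q7, the interferon letters in 0.505% and in 7 members that include H2-D1 and H2-K1, and TATAAA in 13.6% and in 14 members. H2-K1 had 2 overlapping promoters in the table, of which 1 is printed. A match is a description of the letters and was not tested as a binding site.

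Total counts ran from 16386029 (male Wiz +/+ brain 2) to 50459755 (male Wiz +/+ brain 1), and the members together took 241 to 270.5 counts per 1000000 counts of the library (CPM) in cerebellum and 95.4 to 111 CPM in brain. Values are given in the order of the replicates, and where genotypes are set side by side Wiz +/+ comes first. They use the raw library totals, whereas the tests use TMM factors as well. Wiz, the mutated gene, fell from 95.4, 95.5 and 95.4 CPM to 67.6, 66.6 and 67.7 CPM in cerebellum, and it was at 182 to 200.1 CPM in Wiz +/+ brains and at 118 to 129.8 CPM in Wiz MommeD30/+ brains. The cerebellum markers summed to 4608 to 4755 CPM in cerebellum and 355 to 426 CPM in brain. Choroid plexus markers were low in 1 cerebellum, Wiz MommeD30/+ replicate 2, with 944 CPM against 1726 to 2029 CPM in the other 5, and the same library was the highest for red cell markers with 481 CPM. Results that rest on this library or on male Wiz +/+ brain 2 are given with and without it where that moves them.

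Of the 45 members, 7 had no count in any library, where 3 counts would have been 0.0595 to 0.183 CPM, and 13 had at most 10 counts over all 16 libraries. A mean of at least 1 CPM in some group was reached by 16 members, and the plot of levels by library shows these. H2-D1 was the highest of all by far. Per kilobase of exon it had 78.7 ± 2.62 CPM in cerebellum (SD, n = 6) and 18.6 ± 1.69 CPM in brain (SD, n = 10), over both genotypes. H2-K1, the other classical class I gene, had 4.19 ± 0.654 and 5.41 ± 0.555 CPM per kilobase in the same samples. Thus H2-D1 alone held 81.2% to 84.0% of all class I counts in cerebellum and 47.4% to 54.0% in brain. Class I genes are near copies of each other, and how reads that fit several of them were counted is not stated. The split among class I genes, H2-D1 and H2-K1 included, is therefore uncertain.

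**Figure D1:**
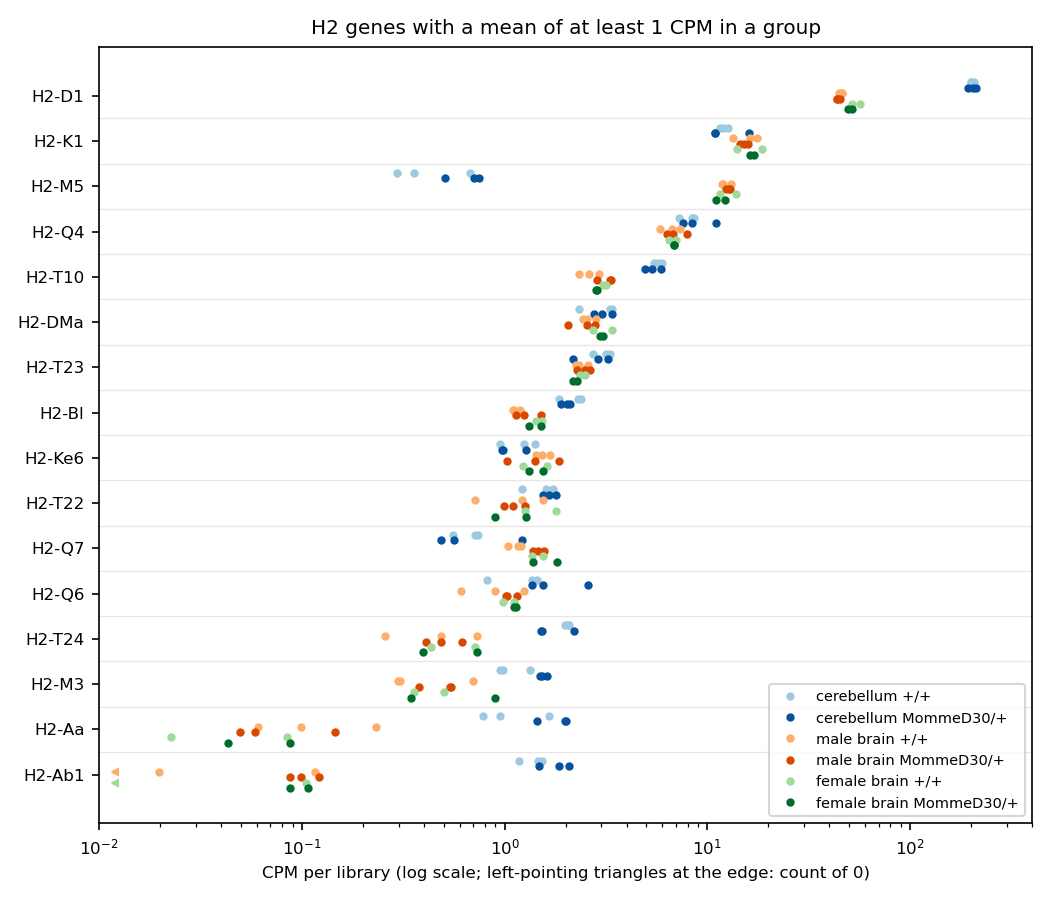
CPM of each library on a log axis for the 16 members with a mean of at least 1 CPM in a group, coloured by tissue, sex and genotype, with counts of 0 drawn as triangles at the left edge. H2-D1, H2-Aa and H2-Ab1 sit apart by tissue with cerebellum higher, and H2-M5 sits apart with brain higher, while genotypes of a tissue lie close together.

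Adult male cerebellum was compared with E13.5 male brain within each genotype, to show where members are expressed. Tissue and age differ together in this comparison and cannot be told apart, and in bulk tissue fewer cells of a type and less RNA per cell cannot be told apart either. A gene was called when edgeR's quasi-likelihood test gave a Benjamini-Hochberg adjusted p of at most 0.05 and the fold change was under 0.7 or over 1.3. In Wiz +/+ animals 20 of the 45 members had counts high enough to be tested, and 14 were higher in cerebellum, where 36.4% of all 16840 genes tested were higher, and 2 were lower, where 32.9% of all genes were. In Wiz MommeD30/+ animals 21 were tested, 13 were higher against 35.8% of all 16967 genes, and 4 were lower against 33% of all genes. Of the members tested, 7 in Wiz +/+ and 3 in Wiz MommeD30/+ reached the count filter through cerebellum alone, and 1 and 2 through brain alone, so that these had to differ and the counts are a description. They were H2-DMb1, H2-DMb2, H2-Ab1, H2-Aa, H2-T24, H2-T-ps and H2-M3 (cerebellum) and H2-M5 (brain) in Wiz +/+ animals. In Wiz MommeD30/+ animals they were H2-Ob, H2-Ab1 and H2-Aa (cerebellum) and H2-Eb2 and H2-M6-ps (brain). Any fold change given for these members in those comparisons carries no p. The median log2 fold change of tested members was 0.91 in Wiz +/+ and 0.58 in Wiz MommeD30/+ animals, beside -0.015 in both for all genes tested. With total counts in place of the TMM factors the median of all genes moved to -0.23 and -0.24, no tested member changed direction, and 10 members were called higher in each genotype.

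Of the classical class I genes H2-D1 was called between tissues and H2-K1 was not. H2-D1 had 208, 200.2 and 201 CPM in Wiz +/+ cerebellum and 46.1, 46.1 and 44.5 CPM in Wiz +/+ male brain, and 193, 212 and 204 against 45.4, 43.7 and 43.7 CPM in Wiz MommeD30/+ animals. Every male brain was below every cerebellum, and the difference was 5.16-fold in Wiz +/+ (log2 fold change 2.37, SE 0.039, adjusted p = 8.9e-17) and 5.35-fold in Wiz MommeD30/+ (log2 fold change 2.42, SE 0.038, adjusted p = 4.3e-16). H2-K1 had 12.7, 11.9 and 11.5 CPM in Wiz +/+ cerebellum, 10.9, 15.98 and 10.9 CPM in Wiz MommeD30/+ cerebellum, 13.4, 17.6 and 16.2 CPM in Wiz +/+ male brain and 14.6, 15.9 and 15.2 CPM in Wiz MommeD30/+ male brain. It was not called in either genotype (log2 fold change -0.14, SE 0.091, adjusted p = 0.16 in Wiz +/+), with a 95% interval of -0.34 to 0.054 that leaves out a difference as large as that of H2-D1.

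Of the non-classical class I genes, 12 were tested in each genotype. In Wiz +/+ cerebellum 8 were higher and 2 lower, beside 36.4% and 32.9% of all genes, and in Wiz MommeD30/+ cerebellum 8 were higher and 3 lower, beside 35.8% and 33% of all genes. H2-M5, which lies far out in the M region, was the most different member towards brain. It had 13.04, 11.8 and 12.01 CPM in Wiz +/+ and 12.9, 12.4 and 12.8 CPM in Wiz MommeD30/+ male brains, 11.6 and 13.8 against 11 and 12.3 CPM in female brains, and 0.294, 0.675 and 0.359 against 0.705, 0.509 and 0.745 CPM in cerebellum. All 10 brains were above 10 CPM and all 6 cerebellums below 1 CPM. It was 24.1-fold lower in cerebellum of Wiz +/+ animals (log2 fold change -4.59, SE 0.17) and 16.6-fold lower in Wiz MommeD30/+ animals (log2 fold change -4.05, SE 0.13, adjusted p = 6.8e-13). The pseudogene H2-M6-ps followed the same order with 0.305 to 0.756 CPM in brain and 0 to 0.194 CPM in cerebellum, was too low to test in Wiz +/+, and had a value towards brain in Wiz MommeD30/+ animals (log2 fold change -2.25, SE 0.39, and -2.93 without cerebellum 3). H2-Q7 was also lower in cerebellum of both genotypes, at 0.556, 0.743 and 0.717 CPM against 1.21, 1.04 and 1.16 CPM in Wiz +/+ animals (log2 fold change -0.58, SE 0.21, adjusted p = 0.02), and at 0.564, 1.22 and 0.486 CPM against 1.56, 1.47 and 1.38 CPM in Wiz MommeD30/+ animals (log2 fold change -0.74, SE 0.27, adjusted p = 0.02). The H2-Q7 call was lost in Wiz +/+ animals without cerebellum 1 (adjusted p = 0.097) or male brain 1 (adjusted p = 0.085), and in Wiz MommeD30/+ animals without cerebellum 1 (adjusted p = 0.10) or cerebellum 3 (adjusted p = 0.12), where the log2 fold change ran from -1.25 to -0.48 with a library left out.

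The T genes H2-T10 and H2-T24 and the M gene H2-M3 were higher in cerebellum. H2-T10 had 5.46, 5.97 and 5.71 CPM in Wiz +/+ cerebellum and 2.62, 2.32 and 2.94 CPM in male brain (log2 fold change 1.31, SE 0.12, adjusted p = 4.9e-08), and 5.89, 5.33 and 4.96 against 3.32, 3.35 and 2.87 CPM in Wiz MommeD30/+ animals. H2-T24 had 2.00, 2.06 and 2.09 against 0.258, 0.488 and 0.727 CPM in Wiz +/+ (log2 fold change 2.35, SE 0.27) and 1.52, 1.53 and 2.20 against 0.620, 0.488 and 0.409 CPM in Wiz MommeD30/+ animals (log2 fold change 2.00, SE 0.23, adjusted p = 1.7e-06). H2-M3, which presents N-formylated peptides, had 0.982, 0.945 and 1.34 against 0.297, 0.305 and 0.698 CPM in Wiz +/+ (log2 fold change 1.52, SE 0.31) and 1.62, 1.53 and 1.49 against 0.546, 0.537 and 0.380 CPM in Wiz MommeD30/+ animals (log2 fold change 1.86, SE 0.20, adjusted p = 8.1e-07). In none of these did a male brain reach the lowest cerebellum of its genotype. H2-T24 overlaps the antisense gene A930015D03Rik, as H2-T22 and H2-T23 do, H2-Q4 overlaps the antisense gene Gm11131, and H2-T10 overlaps the antisense gene BC023719 and, on its own strand, the protein coding gene Gm7030. Without strand, reads of a gene and its antisense partner cannot be told apart.

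Smaller differences in the same direction were found for H2-Bl, H2-Q4, H2-T22 and H2-T23. H2-Bl had 2.39, 2.30 and 1.86 CPM in Wiz +/+ cerebellum, 1.90, 2.10 and 2.04 CPM in Wiz MommeD30/+ cerebellum, 1.11, 1.10 and 1.19 CPM in Wiz +/+ male brain and 1.14, 1.25 and 1.52 CPM in Wiz MommeD30/+ male brain. H2-Q4 had, in the same order of groups, 8.38, 7.29 and 8.64 CPM, 8.39, 11.1 and 7.62 CPM, 5.85, 7.32 and 6.66 CPM and 7.96, 6.76 and 6.32 CPM, so that its tissues overlapped. H2-T23, a ligand of natural killer cell receptors also known as Qa-1, had 3.30, 2.73 and 3.16 CPM, 2.19, 2.88 and 3.24 CPM, 2.24, 2.32 and 2.59 CPM and 2.48, 2.27 and 2.63 CPM with an overlap of tissues in Wiz MommeD30/+ animals. The H2-T23 call in those animals was lost without cerebellum 2 (adjusted p = 0.058), cerebellum 3 (adjusted p = 0.14) or male brain 2 (adjusted p = 0.085). Without TMM factors H2-Q4 and H2-T23 were called in neither genotype, and H2-T22 was not called in Wiz +/+. H2-T22, a ligand of some γδ T cells, had 1.60, 1.22 and 1.73 CPM, 1.55, 1.80 and 1.65 CPM, 0.713, 1.22 and 1.54 CPM and 1.26, 1.10 and 0.995 CPM. Its call in Wiz +/+ animals was lost without cerebellum 1 (adjusted p = 0.061), cerebellum 3 (adjusted p = 0.077) or male brain 1 (log2 fold change 0.31, adjusted p = 0.22). H2-Q6 had 0.818, 1.45 and 1.37 CPM, 1.55, 2.58 and 1.36 CPM, 1.25, 0.610 and 0.902 CPM and 1.02, 1.15 and 1.02 CPM, and was called in Wiz MommeD30/+ animals only (log2 fold change 1.00, SE 0.23, adjusted p = 0.0011). Whether this differed between genotypes was tested by the genotype by tissue term, with an edgeR adjusted p = 0.71. H2-M9 had 15, 7 and 4 counts in Wiz +/+ cerebellum, 28, 8 and 11 counts in Wiz MommeD30/+ cerebellum and 0 in all brains but 1 female with 1 count, and was not tested between tissues.

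**Figure D2:**
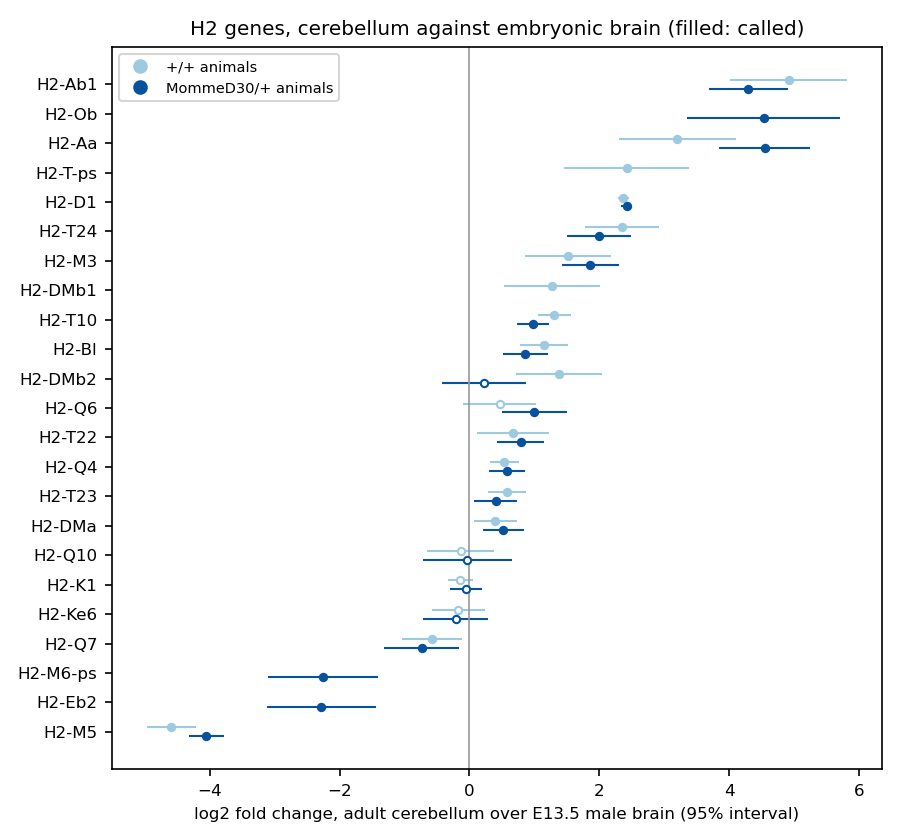
Log2 fold change with its 95% interval for each tested member, adult cerebellum over E13.5 male brain, in Wiz +/+ (light) and Wiz MommeD30/+ (dark) animals, with open circles for members not called. H2-Ab1, H2-Aa and H2-D1 are far to the right in both genotypes, H2-M5 is far to the left, and H2-K1, H2-Q10 and H2-Ke6 straddle 0.

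Class II chains divided by tissue. H2-Ab1 and H2-Aa, the beta and alpha chain of the A molecule, were near absent from E13.5 brain and present in cerebellum. H2-Ab1 had 1.54, 1.18 and 1.47 CPM in Wiz +/+ cerebellum against 0.0198, 0 and 0.116 CPM in Wiz +/+ male brain (log2 fold change 4.92, SE 0.42), and 1.48, 1.87 and 2.07 against 0.0992, 0.122 and 0.0878 CPM in Wiz MommeD30/+ animals (log2 fold change 4.30, SE 0.28). H2-Aa had 0.785, 0.945 and 1.66 against 0.0991, 0.0610 and 0.233 CPM in Wiz +/+ animals (log2 fold change 3.20, SE 0.42) and 1.45, 2.00 and 1.98 against 0.0496, 0.146 and 0.0585 CPM in Wiz MommeD30/+ animals (log2 fold change 4.55, SE 0.32). In female brain H2-Ab1 had 0.105 and 0 CPM in Wiz +/+ and 0.0877 and 0.108 CPM in Wiz MommeD30/+ embryos, and H2-Aa had 0.0842 and 0.0227 against 0.0877 and 0.0430 CPM. Every cerebellum was above every brain for both chains, although in brain these values stand on at most 8 counts per library. The size of the difference in Wiz +/+ animals rested on single brains: for H2-Ab1 the log2 fold change was 4.29 without male brain 1 and 6.39 without male brain 3, and for H2-Aa it was 3.81 without male brain 3. In Wiz MommeD30/+ animals that of H2-Aa was 5.19 without male brain 2.

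The beta chain genes H2-Eb1 and H2-Eb2 had another order. H2-Eb1 had 0.229, 0.135 and 0.0978 CPM in Wiz +/+ and 0.106, 0.102 and 0.0324 CPM in Wiz MommeD30/+ cerebellum, 0.119, 0.183 and 0.204 against 0.198, 0.220 and 0.117 CPM in male brain, and 0.210 and 0.182 against 0.132 and 0.194 CPM in female brain, at most 10 counts in any library, and was not tested. H2-Eb2, the gene next to it, had 0.0327, 0.101 and 0.0652 CPM in Wiz +/+ and 0.106, 0.0679 and 0.0972 CPM in Wiz MommeD30/+ cerebellum, 1 to 3 counts each, and more in every brain. Between Wiz MommeD30/+ cerebellum and male brain its difference was towards brain (log2 fold change -2.28, SE 0.39), and it was too low to test in Wiz +/+ animals. Per kilobase of exon, Wiz +/+ male brain held 0.0662 ± 0.0230 CPM of H2-Eb2 and 0.0867 ± 0.0227 of H2-Eb1 (SD, n = 3), whose ranges of 1 SD met, and Wiz MommeD30/+ male brain held 0.154 ± 0.0253 and 0.0918 ± 0.0279 (SD, n = 3), whose ranges did not. In female brain the same values were 0.0839 ± 0.00453 and 0.101 ± 0.0104 in Wiz +/+ and 0.179 ± 0.0339 and 0.0836 ± 0.0226 in Wiz MommeD30/+ embryos (SD, n = 2). H2-Ab1 and H2-Aa followed with 0.0290 ± 0.0189 and 0.0233 ± 0.0162 CPM per kilobase over all 10 brains (SD), and did not differ beyond their spread. In cerebellum the order began with H2-Ab1 at 0.624 ± 0.124 and H2-Aa at 0.387 ± 0.135 CPM per kilobase, whose ranges of 1 SD met, and ended with H2-Eb1 at 0.0602 ± 0.0331 and H2-Eb2 at 0.0231 ± 0.00834 (SD, n = 6). The alpha chain pseudogene H2-Ea-ps had 0 to 2 counts in cerebellum and 0 in brain, and H2-Pa and H2-Pb had no count at all.

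The peptide loading chains were less divided. H2-DMa had 3.37, 2.33 and 3.33 CPM in Wiz +/+ cerebellum, 3.03, 2.75 and 3.40 CPM in Wiz MommeD30/+ cerebellum, 2.83, 2.56 and 2.44 CPM in Wiz +/+ male brain and 2.80, 2.56 and 2.05 CPM in Wiz MommeD30/+ male brain. Its tissues overlapped in both genotypes, its calls (log2 fold change 0.40, SE 0.16, adjusted p = 0.027 in Wiz +/+) were lost without TMM factors, and in Wiz +/+ animals also without cerebellum 1 (adjusted p = 0.11), cerebellum 3 (adjusted p = 0.093) or male brain 3 (adjusted p = 0.091). H2-DMa shares bases with Brd2 on the other strand. H2-DMb1 was at 0.178, 0.122 and 0.233 CPM in Wiz +/+ male brain and 0.425, 0.405 and 0.359 CPM in Wiz +/+ cerebellum (log2 fold change 1.27, SE 0.35). H2-DMb2 was at 0.982, 0.540 and 0.978 CPM in Wiz +/+ cerebellum and 0.277, 0.427 and 0.466 CPM in Wiz +/+ male brain (log2 fold change 1.38, SE 0.31), whereas in Wiz MommeD30/+ animals it was at 0.388, 0.441 and 0.648 against 0.620, 0.366 and 0.497 CPM and was not called. H2-Ob, the beta chain of DO, had 14, 15 and 10 counts in Wiz +/+ and 12, 13 and 12 counts in Wiz MommeD30/+ cerebellum and at most 2 in any brain. Its partner H2-Oa had at most 11 counts in any library and was not tested. H2-Ke6, the enzyme gene, had 1.24, 1.42 and 0.946 CPM in Wiz +/+ and 1.27, 0.984 and 0.972 CPM in Wiz MommeD30/+ cerebellum, 1.69, 1.53 and 1.43 against 1.86, 1.42 and 1.02 CPM in male brain, and 1.62 and 1.23 against 1.31 and 1.55 CPM in female brain, and was not called.

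The genes that serve these molecules are given from lists of the 2 pathways. Their counts stand beside 36.4% higher and 32.9% lower of all genes in Wiz +/+ and 35.8% and 33% in Wiz MommeD30/+ animals, as do those of the cell type markers. Of 15 class I pathway genes tested, 9 were higher and 3 lower in Wiz +/+ cerebellum, and 9 were higher and 2 lower in Wiz MommeD30/+ cerebellum. B2m, the light chain of class I, had 41.8, 40.9 and 39.95 CPM in Wiz +/+ cerebellum and 18.8, 17.9 and 19.4 CPM in Wiz +/+ male brain (log2 fold change 1.33, SE 0.053, adjusted p = 2.0e-12), and the peptide transporter subunit Tap2 had 7.88, 7.06 and 7.40 against 0.773, 0.610 and 0.727 CPM (log2 fold change 3.56, SE 0.14, adjusted p = 1.8e-12). The proteasome activator genes Psme1 (log2 fold change -1.37, SE 0.048, adjusted p = 4.8e-13) and Psme2 (log2 fold change -1.07, SE 0.054, adjusted p = 3.9e-11) went the other way. Of 8 class II pathway genes, 6 were higher and 1 lower in either genotype. The invariant chain Cd74 had 4.29, 4.05 and 5.15 CPM in Wiz +/+ cerebellum and 0.277, 0.305 and 0.291 CPM in Wiz +/+ male brain (log2 fold change 4.16, SE 0.20). Cd74 reached the count filter through cerebellum alone, so its value is given with no p. The transactivator of class II, Ciita, was also higher (log2 fold change 0.75, SE 0.22, adjusted p = 0.0048). Of 16 interferon response genes 13 were higher and 1 lower in Wiz +/+ cerebellum, and 11 and 1 in Wiz MommeD30/+ cerebellum. In Wiz +/+ animals Ifit1, Ifit3, Gbp2, Gbp3, Usp18, Psmb8 and Psmb9 reached the count filter through cerebellum alone, and Nlrc5 through brain alone. The same holds for some cell type markers, such as Cd163 (cerebellum) and Clec9a and Pax5 (brain). Such genes had to differ, so the counts of the lists and markers are a description.

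Cell type markers moved between the tissues too. The 10 microglia genes summed to 106 to 113 CPM in cerebellum and 76.6 to 97.9 CPM in brain, with 5 higher and 1 lower in Wiz +/+. The 5 border macrophage genes summed to 8.52 to 11.2 against 48.6 to 66.2 CPM, with 4 lower in cerebellum and Cd163 higher, the 6 dendritic cell genes to 118 to 129.5 against 42.2 to 50.97 CPM, and the 5 B cell genes to 0.776 to 1.06 against 7.37 to 11.5 CPM. Most of the dendritic cell sum was Zbtb46, at 83.2 to 94.96 against 39.02 to 47.4 CPM, and in cerebellum also Flt3. Clec9a was lower in cerebellum, at 0.0978 to 0.339 against 0.644 to 1.34 CPM. Of the 4 dendritic cell genes tested, 2 were higher and 1 lower in Wiz +/+ cerebellum. In Wiz MommeD30/+ cerebellum 2 were higher and 2 lower. Most of the B cell sum in brain was Pax5, at 6.42 to 10.5 CPM, a gene also expressed in embryonic midbrain and hindbrain. The 5 T and NK cell genes were near 0 in both, 0 to 0.272 CPM together. The 5 endothelium genes summed to 140.3 to 156 CPM in cerebellum and 212 to 244 CPM in brain. The part of these cells in the tissue differences of class I and class II genes was not tested.

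In cerebellum no member was called between genotypes. Of the 45 members 23 were tested and 0 passed, beside 0.832% of all 15979 genes tested. DESeq2's Wald test called 0 as well, but it gave H2-Aa and H2-Ab1 no adjusted p, so these could not be called by it. At an unadjusted p under 0.05 there were 4 members, beside 19.9% of all genes. H2-D1 had 208, 200.2 and 201 CPM in Wiz +/+ and 193, 212 and 204 CPM in Wiz MommeD30/+ cerebellum, with a log2 fold change of 0.0042 and a 95% interval of -0.066 to 0.075. H2-K1 had a log2 fold change of 0.065 with an interval of -0.17 to 0.30, and of -0.14 without Wiz MommeD30/+ replicate 2. For H2-D1 the interval is narrower than the 1.3-fold limit on either side.

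The members with the lowest p in cerebellum were H2-Aa, H2-M3, H2-DMb2 and H2-Q6. H2-Aa had 0.785, 0.945 and 1.66 CPM in Wiz +/+ and 1.45, 2.00 and 1.98 CPM in Wiz MommeD30/+ cerebellum. The groups overlapped through Wiz +/+ replicate 3, and the test gave log2 fold change 0.68, SE 0.24, adjusted p = 0.11. It was called when that library was left out (log2 fold change 1.07, adjusted p = 0.041 by edgeR) and when no filter on low counts was used (adjusted p = 0.027). H2-Ab1, its partner chain, had 1.54, 1.18 and 1.47 against 1.48, 1.87 and 2.07 CPM (log2 fold change 0.38, SE 0.18, adjusted p = 0.27). H2-M3 had 0.982, 0.945 and 1.34 against 1.62, 1.53 and 1.49 CPM, groups that did not overlap (log2 fold change 0.50, SE 0.19, adjusted p = 0.15). H2-DMb2 had 0.982, 0.540 and 0.978 against 0.388, 0.441 and 0.648 CPM (log2 fold change -0.75, SE 0.30, adjusted p = 0.16), and H2-Q6 had 0.818, 1.45 and 1.37 against 1.55, 2.58 and 1.36 CPM, with its highest value in replicate 2 (log2 fold change 0.59, SE 0.25, adjusted p = 0.19). Without that library the log2 fold change of H2-Q6 was 0.27 (adjusted p = 0.62 by edgeR).

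Among the genes that serve them, 1 of 8 class II pathway genes and 0 of 15 class I pathway genes were called in cerebellum. The called gene was Cd74, the invariant chain of class II, which had 4.29, 4.05 and 5.15 CPM in Wiz +/+ and 6.52, 7.09 and 6.74 CPM in Wiz MommeD30/+ cerebellum. All 3 Wiz MommeD30/+ libraries were above all 3 Wiz +/+ libraries, a 1.51-fold difference (log2 fold change 0.59, SE 0.10, adjusted p = 0.0042), and it stayed called when any 1 library was left out (adjusted p at most 0.018 by edgeR). When all 16 libraries were fitted together its adjusted p was 0.056. Ciita, which switches class II genes on, had 1.08, 1.28 and 1.04 against 1.69, 1.02 and 1.43 CPM (log2 fold change 0.28, SE 0.21, adjusted p = 0.51). B2m had 41.8, 40.9 and 39.95 against 41.3, 54.3 and 43.1 CPM (log2 fold change 0.18, SE 0.071, adjusted p = 0.16), and Calr and Pdia3 of the class I loading complex passed on adjusted p but not on fold, with log2 fold changes of -0.20 and -0.20. None of the 16 interferon response genes was called, and 6 of the 16 had a positive log2 fold change, with a median of -0.064. Their sums were 229.6, 228 and 229 CPM against 242, 236 and 232 CPM and did not overlap. Much of these sums was Stat2, with 99.3, 98.7 and 92.7 against 112, 101.4 and 104.6 CPM.

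Some cell markers moved with genotype in cerebellum. Of the 5 red cell genes Hbb-bs, Hba-a1, Hba-a2 and Alas2 were called higher in Wiz MommeD30/+, with log2 fold changes of 0.86, 0.78, 0.87 and 1.08, and the sum of the list was 145, 206 and 228 CPM in Wiz +/+ and 266, 481 and 279.9 CPM in Wiz MommeD30/+ cerebellum. None of the 10 microglia genes was called, with sums of 113, 106 and 113 against 106, 113 and 107 CPM, and none of the 5 border macrophage genes, with 9.59, 8.74 and 8.80 against 10.4, 11.2 and 8.52 CPM. Within that list Cd163 had 1.44, 1.15 and 1.24 against 1.62, 2.07 and 1.85 CPM (log2 fold change 0.53, SE 0.18, adjusted p = 0.092). None of the 6 dendritic cell genes was called, but their sums did not overlap, with 118, 122 and 119 against 129, 129 and 129.5 CPM. Most of that sum is Flt3 and Zbtb46, of which Zbtb46 had 83.2, 87.6 and 83.4 against 94.2, 94 and 94.96 CPM (log2 fold change 0.16, SE 0.033, adjusted p = 0.012), short of the fold limit. Flt3 had 33.9, 33.6 and 34.3 against 33.7, 33.6 and 33.5 CPM. Of the 3 dendritic cell genes tested 1 had a positive log2 fold change, and the median was -0.011. Cd209a, a dendritic cell marker too low to test, had 0.229, 0.236 and 0.196 against 0.494, 0.475 and 0.292 CPM. Its groups did not overlap, whereas those of Xcr1, Itgax and Clec9a did. The part of blood, border or dendritic cells in the values of Cd74 and H2-Aa was not tested. Without replicate 2 of Wiz MommeD30/+ the log2 fold change was 0.56 for Cd74 (adjusted p = 0.012 by edgeR) and 0.60 for H2-Aa (adjusted p = 0.24), and the red cell sums of the other 2 Wiz MommeD30/+ libraries were still above those of all Wiz +/+ libraries.

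**Figure D3:**
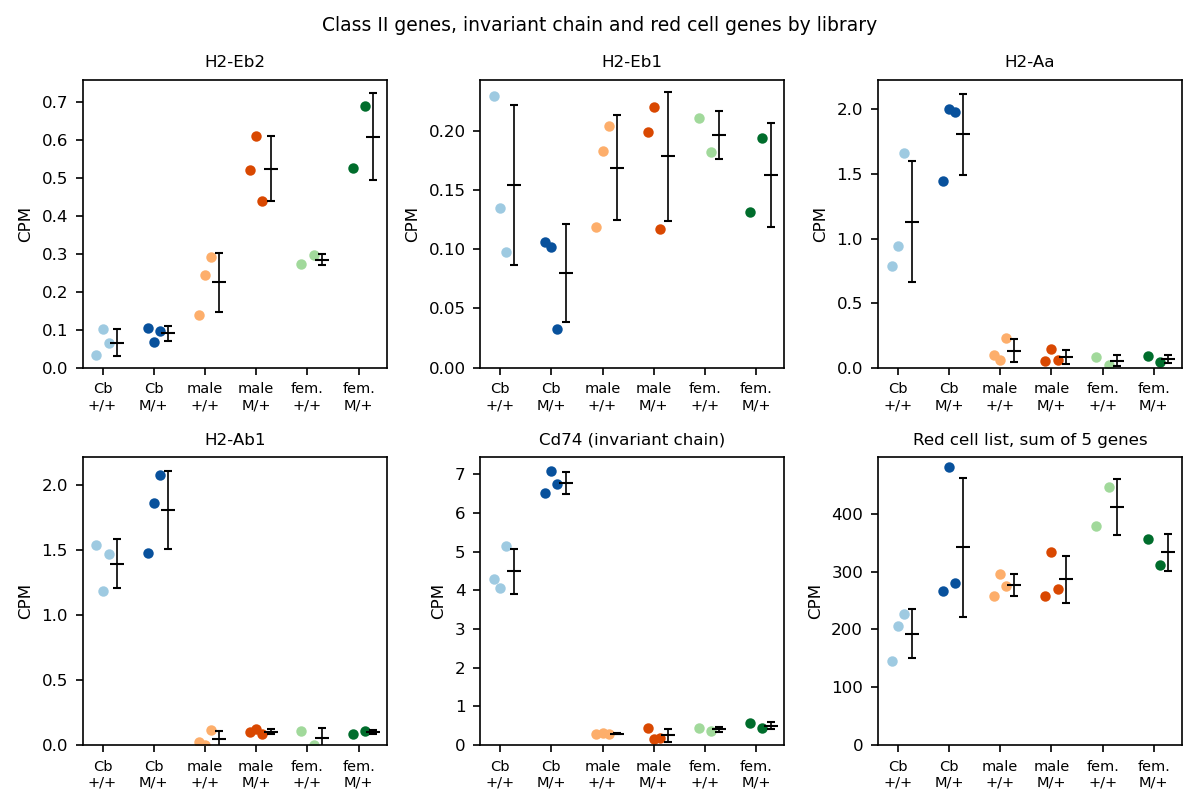
CPM by library for 4 class II chains, the invariant chain Cd74 and the summed red cell genes in cerebellum (Cb) and in male and female (fem.) E13.5 brain of Wiz +/+ (+/+) and Wiz MommeD30/+ (M/+) animals, with the mean and SD of each group as black bars. H2-Eb2 is higher in every Wiz MommeD30/+ brain than in any Wiz +/+ brain, and Cd74 is higher in every Wiz MommeD30/+ cerebellum than in any Wiz +/+ cerebellum.

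In E13.5 brain the member called between genotypes was H2-Eb2. Its counts were 7, 4 and 10 in male Wiz +/+ brains and 21, 25 and 15 in male Wiz MommeD30/+ brains, 13 and 13 in female Wiz +/+ brains and 24 and 32 in female Wiz MommeD30/+ brains. In CPM these were 0.139, 0.244 and 0.291 against 0.521, 0.611 and 0.439 in males and 0.274 and 0.295 against 0.526 and 0.688 in females. The lowest Wiz MommeD30/+ brain was above the highest Wiz +/+ brain over both sexes. With all 10 brains in 1 fit and sex as a covariate the difference was 2.29-fold (log2 fold change 1.20, SE 0.23, adjusted p = 0.034, 95% interval 0.71 to 1.69).

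H2-Eb2 was the 1 member called of the 19 tested in that fit, where 0.0965% of all 17620 genes were called higher and 0.346% in either direction. It was also the 1 member with an unadjusted p under 0.05, beside 11.8% of all genes. Leaving out 1 library kept the log2 fold change between 1.02 and 1.31 but ended the call for 7 of the 10 libraries, namely all but male Wiz +/+ 3, male Wiz MommeD30/+ 3 and female Wiz MommeD30/+ 1. The adjusted p was then at most 0.14 by edgeR, which was without male Wiz +/+ 1, and it was 0.067 without male Wiz +/+ 2, the shallowest library. DESeq2's Wald test, which filters low counts itself, gave the gene a log2 fold change of 1.20 and no adjusted p. Within each sex the gene was not called. Its log2 fold change was 1.32 (SE 0.34) in males and 1.09 (SE 0.33, adjusted p = 0.77 by edgeR) in females. In males the gene reached the count filter through the Wiz MommeD30/+ libraries alone, so that value is given with no p. H2-Eb2 overlaps no other gene in the annotation and lies 1936.2 kb beyond the end of Wiz.

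No other class II gene was called in brain. H2-Eb1, whose promoter holds the same X box and Y box letters, had 0.119 to 0.210 CPM in Wiz +/+ and 0.117 to 0.220 CPM in Wiz MommeD30/+ brains. H2-Aa had 0.0227 to 0.233 CPM in Wiz +/+ and 0.0430 to 0.146 CPM in Wiz MommeD30/+ brains, H2-Ab1 had 0 to 0.116 against 0.0877 to 0.122 CPM, and Cd74 had 0.277 to 0.442 against 0.146 to 0.570 CPM. The groups overlapped for all 4 of these genes, and H2-Eb1, H2-Aa and H2-Ab1 were too low to test. Ciita had 0.549 to 0.902 against 0.611 to 1.22 CPM (log2 fold change 0.17, SE 0.21, adjusted p = 0.79). In cerebellum H2-Eb2 had 1, 3 and 2 counts in Wiz +/+ and 3, 2 and 3 counts in Wiz MommeD30/+ animals, and a difference was not detectable at this depth.

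Markers of cells that make class II gave no call between genotypes in the 10 brains. The 5 B cell genes, mostly Pax5, summed to 7.37 to 11.5 CPM in Wiz +/+ and 7.90 to 10.4 CPM in Wiz MommeD30/+ brains, the 6 dendritic cell genes to 42.2 to 50.97 against 43.9 to 48.9 CPM, the 5 border macrophage genes to 48.9 to 66.2 against 48.6 to 54.8 CPM, and the 10 microglia genes to 76.6 to 97.9 against 80.9 to 89.9 CPM. Red cell genes summed to 258 to 446 against 257 to 356 CPM. Over both sexes these sums overlapped between genotypes, but within a sex some did not. In males the dendritic cell sums were 42.3, 42.2 and 42.8 CPM in Wiz +/+ and 48.7, 46.7 and 44.8 CPM in Wiz MommeD30/+ brains. They were mostly Zbtb46 (39.02, 39.4 and 39.9 CPM against 45.2, 42.96 and 41.9 CPM). Female dendritic cell sums were 46.8 and 50.97 CPM against 43.9 and 48.9 CPM and overlapped. In females the microglia, border macrophage and red cell sums were lower in both Wiz MommeD30/+ brains than in either Wiz +/+ brain, with 97.9 and 96.9 CPM against 89.9 and 86.8 CPM for microglia. The part of such cells in the H2-Eb2 values was not tested. Of the border macrophage genes Cd163 had a log2 fold change of 1.01 (SE 0.35). It reached the count filter through Wiz MommeD30/+ libraries alone, so that value is given with no p. It was the 1 gene of these 5 with a positive log2 fold change, and their median was -0.072.

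No other member was called in brain. In males 18 members were tested and 0 passed, beside 0.184% of all 16848 genes, with 1 at an unadjusted p under 0.05 beside 8.45% of all genes. In females 19 were tested and 0 passed, beside 0.111% of all 17152 genes, with 1 beside 6.4% at an unadjusted p under 0.05. The 1 member was H2-Eb2 in both sexes, which in males reached the count filter through the Wiz MommeD30/+ libraries alone. DESeq2's Wald test called 0 members in either sex, but it gave H2-Eb2 no adjusted p in males or in females. H2-D1 had 46.1, 46.1 and 44.5 CPM in Wiz +/+ and 45.4, 43.7 and 43.7 CPM in Wiz MommeD30/+ male brains, and 51.9 and 56.8 against 49.5 and 51.6 CPM in female brains. Over both sexes it differed by -0.072 (95% interval -0.15 to 0.0015, log2 scale). H2-K1 had 18.6 and 14.1 CPM in female Wiz +/+ and 17.03 and 16.3 CPM in female Wiz MommeD30/+ brains, with an interval over both sexes of -0.19 to 0.17. H2-M5, the member that marked embryonic brain, had an interval of -0.17 to 0.11. For low members such as H2-M3 and H2-T24 the intervals were wide, -0.33 to 0.99 and -0.56 to 0.66, so that 1.3-fold changes of these were not detectable at this depth. Of the class I, class II and interferon lists 0 genes were called in males, in females or over both sexes.

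In female brain none of the remaining members with at least 1 CPM in a group was called. H2-Q4 had 6.99 and 6.45 CPM in Wiz +/+ and 6.88 and 6.84 CPM in Wiz MommeD30/+ females. H2-T10 had 3.07 and 3.18 CPM against 2.85 and 2.82 CPM. H2-T23 had 2.48 and 2.36 CPM against 2.17 and 2.28 CPM. By edgeR the log2 fold change was -0.145 for H2-T10 (adjusted p = 0.91) and -0.1265 for H2-T23 (adjusted p = 0.92), and H2-Q4 overlapped. H2-DMa had 2.74 and 3.39 CPM against 3.05 and 2.95 CPM. H2-Bl had 1.54 and 1.43 CPM against 1.31 and 1.51 CPM. H2-T22 had 1.26 and 1.79 CPM against 0.898 and 1.27 CPM. H2-DMa and H2-Bl overlapped between genotypes, and so did H2-T22. H2-Q6 had 1.12 and 0.977 CPM against 1.14 and 1.12 CPM. H2-Q7 had 1.37 and 1.54 CPM against 1.38 and 1.81 CPM. H2-T24 had 0.716 and 0.432 CPM against 0.395 and 0.731 CPM. H2-M3 had 0.358 and 0.5 CPM against 0.898 and 0.344 CPM. The groups overlapped for H2-Q7, H2-T24 and H2-M3.

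Whether the genotype difference itself differed between tissues or sexes was tested directly. For tissue, 25 members were tested and 0 were called, beside 0.26% of all 17337 genes, with 2 at an unadjusted p under 0.05 beside 9.72% of all genes. These were H2-DMb2, lower in Wiz MommeD30/+ cerebellum and higher on average in Wiz MommeD30/+ male brain (log2 fold change -1.16, SE 0.45, adjusted p = 0.39), and H2-T10 (log2 fold change -0.34, SE 0.16, adjusted p = 0.5). For H2-Eb2 the term was -0.88 (95% interval -2.56 to 0.79), which does not tell whether cerebellum differs from brain. For sex, 19 members were tested and 0 were called, beside 0% of all 17620 genes, with 1 member, H2-T10, at an unadjusted p under 0.05 beside 3.98% of all genes (log2 fold change -0.40, SE 0.18, adjusted p = 0.98). The sex term of H2-Eb2 was -0.23 (95% interval -1.26 to 0.81). DESeq2's Wald test called 0 members for either term, but it gave H2-Aa and H2-Eb2 no adjusted p for the tissue term.

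Position along chromosome 17 was set beside the genotype differences because the members are linked to Wiz. Between Wiz and the end of the last member the annotation holds 340 further genes found in the count files. In cerebellum 144 of these were tested, and 36 of the 144 had an unadjusted p under 0.05 beside 19.9% of all genes. A positive log2 fold change was found for 49 of the 144, with a median of -0.051. Of all 15979 genes tested 7784 were positive, with a median of -0.0031. Beside 0.832% of all genes 1 was called, Zfp57, a zinc finger gene that guards imprinted loci (log2 fold change 0.41, SE 0.092, adjusted p = 0.016). In male, female and all 10 brains 149, 154 and 159 were tested and 0 were called, with 6, 5 and 10 at an unadjusted p under 0.05, beside 8.45%, 6.4% and 11.8% of all genes. Among the members, the nearest to Wiz that were tested in all 3 tissue sets, H2-K1, H2-Ke6 and H2-DMa, were not called. The tested members nearest to H2-Eb2 in the 10 brains were H2-DMb2 at 1753.9 kb and H2-D1 at 2873.3 kb from Wiz, since H2-Ab1, H2-Aa, H2-Eb1 and H2-Ea-ps were too low to test there.

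**Figure D4:**
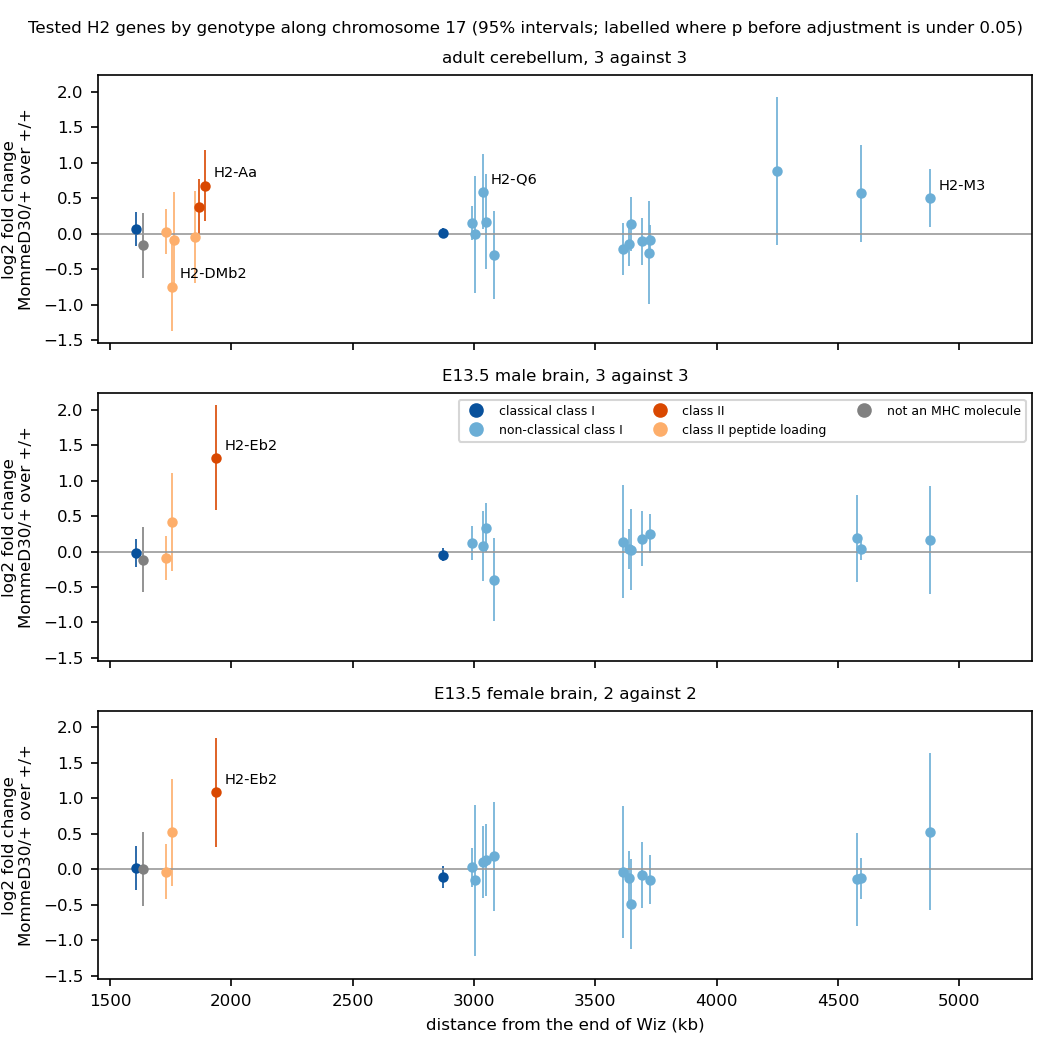
Log2 fold change of Wiz MommeD30/+ over Wiz +/+ with its 95% interval for each tested member, by distance in kb from the end of Wiz, in adult cerebellum, E13.5 male brain and E13.5 female brain, coloured by class, with names where p before adjustment was under 0.05. H2-Eb2 is above 0 in both brain panels, while intervals of most other members cross 0.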

How the data were processed

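PolyA RNA libraries (TruSeq, single-end reads) were sequenced on a HiSeq by the authors, aligned to mm10 with TopHat2 2.0.11 and counted per gene with HTSeq 0.6.1. The deposited values are raw counts per Ensembl gene, 1 file for each of 16 libraries. Strand setting, overlap mode and annotation release are not given in the sources used here. The 3 ChIP-seq samples were not analysed here. Of 41388 identifiers 1134 were not in the annotation used here (GENCODE M21, GRCm38) and took at most 0.171% of the counts of a library.

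Libraries were grouped by tissue, sex and genotype as labelled. Replicates are the samples numbered in the labels, and p-values measure the spread between these samples, part of which may be technical. Each comparison was fitted across all genes with edgeR 4.0.16 in R 4.3.3 (filterByExpr with a minimum count of 10, TMM factors, quasi-likelihood F-test, Benjamini-Hochberg adjustment) on the libraries compared, with sex as a covariate over both sexes. Calls needed an adjusted p no higher than 0.05 together with a fold below 0.7 or above 1.3. Interaction terms were called on adjusted p alone. CPM use raw totals. The scripts were tested on simulated counts. Intervals cover 95%, and count floors cover counting error only.

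The members and gene lists were chosen with earlier results of these data known. Named with values were members called between genotypes, members with a mean of at least 1 CPM in a group, class II members, Wiz, and list genes called between genotypes or used as markers. Pathway genes named for their tissue difference or low p were chosen after their values were seen. Alternatives were DESeq2 1.42.0 size factors and Wald test, no filter, a mean count of at least 50, a replicate block, 1 fit over 16 libraries, no fold limit, leaving out each library, and, chosen after seeing the data, total counts without scaling factors. Figures were drawn with matplotlib 3.10.9.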

Additional observations from a re-analysis of the deposited data

How the results depend on the processing

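The number of members called between tissues was 16 in Wiz +/+ and 17 in Wiz MommeD30/+ animals, and fell to 7 in each with a mean count of at least 50, where fewer members were tested. Leaving out each library gave 16 to 19 in Wiz +/+ and 16 to 20 in Wiz MommeD30/+ animals. In cerebellum 0 members became 1 (H2-Aa) with no filter on low counts, and 0 to 1 with a library left out. In male brain 0 became 1 (H2-Eb2) with no filter and stayed 0 to 0 with a library left out. Over the 10 brains the 1 call (H2-Eb2) became 0 with DESeq2's Wald test, which gave no adjusted p, 0 with a mean count of at least 50, where H2-Eb2 was not tested, and 0 to 1 with a library left out. Female brain and both interaction terms had 0 members called under every alternative run. In female brain and for the tissue term DESeq2's Wald test gave H2-Eb2 no adjusted p. The cause of these shifts was not tested beyond the filters named.

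Adding the replicate number as a block ended the H2-Eb2 call, leaving 0 members over the 10 brains (log2 fold change 1.16, adjusted p = 0.13 by edgeR), and changed no other genotype call of a member. Same-numbered libraries of the genotypes had correlations of deviations of -0.20 to 0.013, so that the samples share only a number.

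Counts over all genes moved by more than 1.5 times as follows. In cerebellum 133 genes became 80 with DESeq2, 211 with no filter, 66 in 1 fit over 16 libraries, 839 with no fold limit, 70 without Wiz +/+ replicate 3 and 83 without Wiz MommeD30/+ replicate 1. In male brain 31 became 175 with no filter, 20 without Wiz +/+ replicate 1 and 117 without Wiz MommeD30/+ replicate 3. In female brain 19 became 32 with DESeq2, 3 with the block, 54 in 1 fit and 0 to 261 with a library left out. Over both sexes 61 became 101 with no filter and 93 in 1 fit. The tissue term moved from 45 to 121 with DESeq2, 416 with no filter, 13 with the block, 27 in 1 fit and 14 to 103 with a library left out, and the sex term from 0 to 1 with DESeq2, 1 with no filter and 13 without female Wiz +/+ replicate 1. A count of 3 was 0.0595 to 0.183 CPM, which limits what can be seen of the lowest members.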

Other observations

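In cerebellum 1 library, Wiz MommeD30/+ replicate 2, was the highest of the 6 for several class I genes. It had 15.98 CPM of H2-K1 beside 12.7, 11.9 and 11.5 CPM in the 3 Wiz +/+ libraries, and the highest value of H2-Q4, H2-Q6 and H2-Q7 (11.06, 2.58 and 1.22 CPM) and of B2m (54.3 CPM). This is also the library with the lowest choroid plexus and the highest red cell sum, and the part of either in the class I values was not tested.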
